A study of Rattus norvegicus with 30 samples.

Results

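Abhd15, Rasgef1a and Tmcc2 are 3 little-studied genes whose RNA was lower after Glenn surgery in CD31-positive cells of the rat lung. They were picked by name, as 3 of the 30562 genes in the deposited table, because earlier work on these libraries had found them lowered by the operation. Their differences between Glenn and sham are therefore given as descriptions, with no test. Tests are kept for diet, for the diet dependence of the surgical difference, for the library series and for co-variation between libraries of the same group.

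The libraries were made from lung cells of wild-type rats, pulled out with microbeads that bind CD31, found on the surface of endothelium. All animals were operated on 3 weeks before sampling and then ate a modified diet. Glenn surgery connects the superior vena cava with a pulmonary artery, which feeds that lung with blood lacking the hepatic venous return, and sham surgery is its control. The 6 groups were sham surgery with the vitamin A control, deficient or excess diet, and Glenn surgery with the same 3 diets, each with 5 libraries. Strain, age, sex and whether libraries came from separate animals are not in the labels, so the p-values below measure only the spread between these libraries.

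Abhd15 encodes a member of the alpha/beta hydrolase fold family and is best known from fat cells, where it takes part in the suppression of lipolysis by insulin together with the phosphodiesterase PDE3B. Rasgef1a encodes a guanine nucleotide exchange factor, a protein that switches small GTPases of the Ras family on by exchanging GDP for GTP, and its described substrate is Rap2. Tmcc2 encodes a transmembrane coiled-coil protein of the endoplasmic reticulum that binds apolipoprotein E and the amyloid precursor protein. None of the 3 is a standard marker of lung endothelium.

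The genes lie on 3 chromosomes. In the RefSeq annotation of GRCr8, which is a later build than the mRatBN7.2 (rn7) assembly named in the submitters' processing notes, Abhd15 spans chr10:62861335-62866726, Rasgef1a chr4:152859900-152940365 and Tmcc2 chr13:46346177-46383862. The 250 bases before each annotated start are shown because the 3 genes were lower in the same libraries. They are printed 5′ to 3′ on the gene's strand, and capitals mark GGGCGG, the SP/KLF GC box, and GGCGCC, a core of BMP-responsive SMAD elements, on either strand. For Rasgef1a the first of 3 annotated starts is shown.
Abhd15, chr10:62861085-62861334, plus strand: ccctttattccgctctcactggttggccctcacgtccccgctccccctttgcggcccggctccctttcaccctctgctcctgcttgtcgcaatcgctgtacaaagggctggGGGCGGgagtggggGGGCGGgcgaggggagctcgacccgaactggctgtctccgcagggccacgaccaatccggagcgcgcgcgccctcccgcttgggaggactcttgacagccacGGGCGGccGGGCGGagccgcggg
Rasgef1a, chr4:152859650-152859899, plus strand: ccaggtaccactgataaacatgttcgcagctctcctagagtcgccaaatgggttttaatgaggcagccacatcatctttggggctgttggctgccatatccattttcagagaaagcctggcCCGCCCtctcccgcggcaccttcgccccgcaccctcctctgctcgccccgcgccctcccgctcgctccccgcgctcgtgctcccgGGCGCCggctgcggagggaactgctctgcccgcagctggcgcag
Tmcc2, chr13:46383863-46384112, minus strand: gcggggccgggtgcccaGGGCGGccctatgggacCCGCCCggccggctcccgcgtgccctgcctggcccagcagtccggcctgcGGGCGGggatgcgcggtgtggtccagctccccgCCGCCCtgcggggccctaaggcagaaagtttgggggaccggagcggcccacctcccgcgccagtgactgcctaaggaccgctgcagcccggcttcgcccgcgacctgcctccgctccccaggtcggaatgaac

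All 3 windows were rich in G and C, at 71.2% for Abhd15, 65.2% for Rasgef1a and 76.4% for Tmcc2, against a median of 51.2% over 33469 RefSeq windows of the same length. GGGCGG occurred 4 times before Abhd15, once before Rasgef1a and 4 times before Tmcc2, and 30.5% of all windows held it. GGCGCC, held by 8.69% of all windows, occurred once before this start of Rasgef1a and 3 times before its second start, whose window lies just inside the gene, and these letters were not in the windows of Abhd15 and Tmcc2. The forkhead letters GTAAACA, the nuclear receptor half-site AGGTCA and the E-box CACGTG were in none of the 5 windows of the 3 genes. Those letters were in 3.21%, 14.1% and 5.59% of all windows. The SMAD letters CAGAC, in 42.9% of all windows, were only in the third Rasgef1a window. The KLF letters CACCC (49.2% of all windows) were in all 5. The hypoxia core ACGTG (16.6%) was in the Abhd15 and the second Rasgef1a window. The ETS core GGAA (93.2%) was in all but the second Rasgef1a window. These matches are descriptions of sequence and do not show binding.

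The libraries held 22 to 77.6 M estimated counts each, with a median of 40 M. Values are given below as CPM, that is, counts per 1 M counts after TMM scaling, which corrects for differences in library make-up. The endothelial genes Pecam1, which encodes CD31 itself, and Cdh5 were high in every library, at 863 CPM or more and 1557 CPM or more, while the leukocyte gene Ptprc stayed at or below 18.9 CPM. The surfactant gene Sftpc, a marker of type 2 alveolar cells, reached 15062 to 36185 CPM, so the sorted material held much alveolar epithelial RNA. Library names fall into a series A of 22 libraries and a series B of 8. Series B held 3 of the 5 libraries of the sham deficient group, 2 of Glenn deficient and 3 of Glenn excess, and 0 of the other groups. The transplantation antigen gene RT1-CE16 split the libraries into 13 with high and 17 with low levels. Of the 5 sham excess libraries 0 were RT1-CE16-high, against 2 to 3 in the other groups. All series B libraries were RT1-CE16-high, and all series A libraries of the deficient and excess diets were RT1-CE16-low. On those diets, series A and the RT1-CE16-low set are therefore the same libraries.

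Abhd15 showed the widest gap of the 3. Its levels after sham surgery were 25.1, 22.9, 29.3, 25 and 23.1 CPM on the control diet. On the deficient diet the sham libraries read 24, 25, 23.4, 26.4 and 16 CPM, and on the excess diet 22.6, 25.3, 22.7, 24.3 and 19.7 CPM. The sham groups overlapped, and the single low library was replicate 5 on the deficient diet.

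After Glenn surgery Abhd15 read 1.81, 1.77, 1.51, 1.11 and 1.84 CPM on the control diet. The Glenn deficient libraries had 2.31, 1.42, 1.46, 2.28 and 2.13 CPM, and the Glenn excess libraries 3.82, 2.17, 2.05, 1.26 and 2.03 CPM. Every Glenn library lay below every sham library, and replicate 1 of the excess diet was the highest of the Glenn libraries. Even so, the lowest sham library had 4.19 times the level of that highest Glenn library. The estimated counts behind these levels were 572 to 1294 in sham and 47 to 184 in Glenn libraries, so the Glenn levels rest on far fewer reads. In bulk RNA, fewer cells of a type and less RNA per cell cannot be told apart, here and for the values below.

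The mean of Abhd15 was 23.7 ± 2.98 CPM (SD, n = 15) after sham and 1.93 ± 0.643 CPM (SD, n = 15) after Glenn surgery, 8.14% of the sham mean. The fitted log2 difference, Glenn minus sham, was -3.60 (SE 0.119) averaged over diets. It was -3.96 (SE 0.207) on the control, -3.62 (SE 0.206) on the deficient and -3.23 (SE 0.218) on the excess diet. Without Glenn excess replicate 1 the last value was -3.60. By size of fall in the averaged contrast, Abhd15 ranked 14 of the 16171 genes tested.

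Rasgef1a separated the operations as completely, with a smaller fold. Sham libraries on the control diet had 219, 196, 222, 178 and 210 CPM. Those on the deficient diet had 231, 180, 176, 212 and 202 CPM, and those on the excess diet 232, 229, 264, 228 and 217 CPM. The excess diet held the highest sham library, and all neighbouring sham groups overlapped.

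Glenn libraries of the control diet had 44, 47.4, 44.3, 44.8 and 37.2 CPM of Rasgef1a. The deficient diet gave 54.4, 34.2, 37.2, 44.2 and 48.5 CPM, and the excess diet 65.2, 55.5, 46.9, 50.4 and 38.1 CPM. No Glenn library reached the sham range, and Glenn excess replicate 1 was again the highest, with the lowest sham library 2.7 times above it. Means were 213 ± 23.9 CPM (SD, n = 15) after sham and 46.2 ± 8.12 CPM (SD, n = 15) after Glenn surgery, or 21.7% of sham.

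The log2 difference of Rasgef1a was -2.19 (SE 0.0705) averaged over diets. By diet it was -2.23 (SE 0.12) on control, -2.22 (SE 0.121) on deficient and -2.13 (SE 0.132) on excess, values that lay within 1 SE of each other. Rasgef1a ranked 74 by size of fall.

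Tmcc2 was lower after Glenn surgery by a smaller factor and with more spread. Sham control libraries had 1127, 1364, 1160, 1411 and 1289 CPM. Sham deficient libraries had 1121, 1032, 1148, 1538 and 1342 CPM, and sham excess libraries 1387, 1184, 1401, 1398 and 1321 CPM. The deficient diet held both the lowest and the highest sham library.

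After Glenn surgery the Tmcc2 levels were 511, 791, 553, 485 and 442 CPM on the control diet. They were 608, 625, 456, 489 and 473 CPM on the deficient diet and 1039, 676, 468, 646 and 399 CPM on the excess diet. Within each diet the 5 Glenn libraries lay below the 5 sham libraries. Across diets, Glenn excess replicate 1, at 1039 CPM, passed the lowest sham library, at 1032 CPM, and no other Glenn library did so. Glenn control replicate 2, the deepest library of the series at 77.6 M counts, was the next highest.

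Averaged over diets, the log2 difference of Tmcc2 was -1.14 (SE 0.101), and the Glenn mean was 45% of the sham mean. By diet it was -1.19 (SE 0.175) on control, -1.29 (SE 0.18) on deficient and -0.935 (SE 0.19) on excess, the last becoming -1.24 without Glenn excess replicate 1. Tmcc2 ranked 393 by size of fall. Within library series A alone the averaged log2 differences were -3.56 for Abhd15, -2.15 for Rasgef1a and -0.91 for Tmcc2. Among RT1-CE16-low libraries alone, a set that differs from series A only on the control diet, they were -3.51, -2.14 and -0.85.

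**Figure D1:**
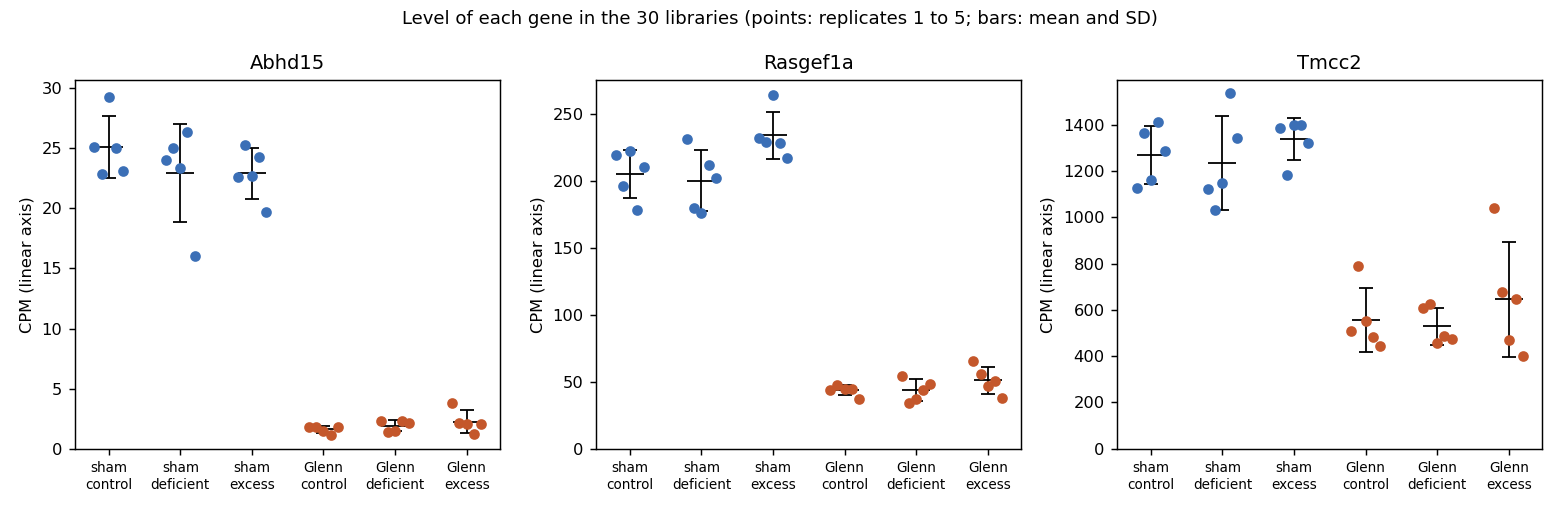
Level of Abhd15, Rasgef1a and Tmcc2 in CPM on linear axes that start at 0, with 1 point per library and the mean and SD of each group of 5. Sham groups (blue) and Glenn groups (orange) are separate for Abhd15 and Rasgef1a, and for Tmcc2 only Glenn excess replicate 1, at 1039 CPM, passes the lowest sham library, at 1032 CPM.

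The choice of these genes used the Glenn against sham contrast, so their place in it carries no weight of its own. For scale, 48.2% of the 16171 genes tested changed in the averaged contrast at an adjusted p under 0.05 (edgeR, Benjamini-Hochberg), and 24.7% were lower. By diet, 24.9% of genes changed on control, 27.4% on deficient and 21.9% on excess, and 13.1%, 13.7% and 10.4% were lower. All 15 Glenn libraries lay below all 15 sham libraries for 2.73% of genes, among them Abhd15 and Rasgef1a. Within a single diet, the 5 Glenn libraries lay below the 5 sham libraries for 9.41% of genes on control, 9.59% on deficient and 7.75% on excess, and all 3 chosen genes were among them each time.

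Set against the sham mean of its own diet, a Glenn library kept 4.44% to 16.7% of Abhd15, with a median of 7.36%. For Rasgef1a the share was 16.3% to 27.9%, with a median of 21.6%. For Tmcc2 it was 29.9% to 77.6%, with a median of 40.2%. In each of the 15 Glenn libraries the shares stood in the same order, Abhd15 lowest and Tmcc2 highest. Glenn excess replicate 1 kept the largest share of all 3.

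**Figure D2:**
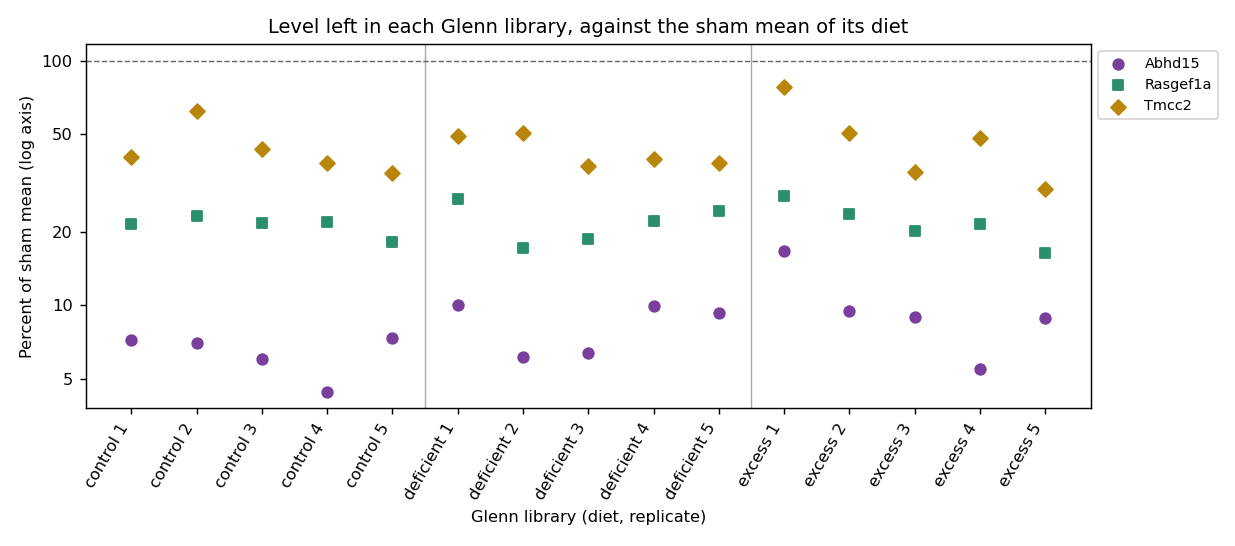
Level of each gene in each of the 15 Glenn libraries, as a percent of the mean of the 5 sham libraries on the same diet (log axis; the dashed line marks 100%). Abhd15 lies at 4.44% to 16.7%, Rasgef1a at 16.3% to 27.9% and Tmcc2 at 29.9% to 77.6%, and Glenn excess replicate 1 is highest for all 3.

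Ordered by mean level, every sham group stood above every Glenn group for each gene. For Abhd15 the order was sham control (25.1 ± 2.58 CPM, SD, n = 5), sham deficient (23.0 ± 4.04), sham excess (22.9 ± 2.11), Glenn excess (2.27 ± 0.942), Glenn deficient (1.92 ± 0.443) and Glenn control (1.61 ± 0.306). For Rasgef1a it was sham excess (234 ± 17.9 CPM), sham control (205 ± 18), sham deficient (200 ± 22.8), Glenn excess (51.2 ± 10), Glenn deficient (43.7 ± 8.21) and Glenn control (43.6 ± 3.79). For Tmcc2 it was sham excess (1338 ± 92.2 CPM), sham control (1270 ± 124), sham deficient (1236 ± 203), Glenn excess (645 ± 249), Glenn control (556 ± 137) and Glenn deficient (530 ± 79.9). Neighbours in these orders overlapped except at the step from sham to Glenn, and for Tmcc2 they overlapped there too. The excess diet had the highest mean of the 3 Glenn groups for every gene.

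Whether diet moved the genes was tested within each operation, with both diets compared to the control diet in a fit over all genes. After sham surgery, the deficient diet differed from control by a log2 change of -0.0049 (SE 0.207) for Abhd15, 0.033 (SE 0.128) for Rasgef1a and 0.12 (SE 0.199) for Tmcc2. None passed the threshold (adjusted p = 1 each, edgeR), in a comparison where 0% of all genes did. In it, 844 genes had an unadjusted p under 0.05, DESeq2 called 26 genes and limma voom called 0. The excess diet differed by -0.13 (SE 0.178), 0.19 (SE 0.114) and 0.075 (SE 0.172) in the same order, with adjusted p of 0.858, 0.575 and 0.925 (edgeR), where 0.241% of genes passed.

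After Glenn surgery the deficient diet gave log2 differences of 0.34 (SE 0.216) for Abhd15, 0.052 (SE 0.123) for Rasgef1a and 0.022 (SE 0.182) for Tmcc2. The adjusted p values were 0.66, 0.949 and 0.99 (edgeR), and 0.00618% of all genes passed. The excess diet gave 0.60 (SE 0.216) for Abhd15, with an unadjusted p of 0.00981 and an adjusted p of 0.17 (edgeR). It gave 0.295 (SE 0.127) for Rasgef1a, with an adjusted p of 0.27, and 0.33 (SE 0.187) for Tmcc2, with an adjusted p of 0.454 (edgeR). In that comparison 1.47% of all genes passed, and the 3 genes were not among them.

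These differences rested in large part on Glenn excess replicate 1. Without it they were 0.23 for Abhd15, 0.16 for Rasgef1a and 0.03 for Tmcc2. In library series A alone, which leaves 2 Glenn excess libraries including that replicate, the difference of Abhd15 was 0.89 and passed the threshold (adjusted p = 0.0302, edgeR). Over the other alternatives tried for it, leave-one-out included, the adjusted p was 0.0946 or higher.

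The diet dependence of the surgical difference was tested as an interaction. For Abhd15 the joint test had an unadjusted p of 0.0489 and an adjusted p of 0.873 (edgeR). The Glenn minus sham log2 difference of Abhd15 was 0.725 (SE 0.28) higher, that is less negative, with excess vitamin A than with the control diet, with an adjusted p of 0.497. Adjusted p values of the joint test were 0.999 for both Rasgef1a and Tmcc2, and 0.00618% of genes passed it. Between the library series, B minus A, the log2 differences were -0.204 for Abhd15, -0.113 for Rasgef1a and -0.238 for Tmcc2, with adjusted p of 0.633, 0.665 and 0.506 (edgeR) where 1.64% of genes passed.

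The spread within groups was next described for each gene. The SD of log2(CPM + 1) around its group mean was 0.24 for Abhd15, 0.19 for Rasgef1a and 0.29 for Tmcc2. The added 1 shrinks this SD for Abhd15 after Glenn surgery, at a mean of 1.93 CPM, so the SDs do not rank the genes. For each of the 3 the SD was larger in Glenn than in sham libraries, at 0.28 against 0.19, 0.23 against 0.14, and 0.34 against 0.22. The mean within-group coefficient of variation of Tmcc2 after Glenn surgery was 26.1%, against a median of 11.2% for the 211 genes of similar level. After sham surgery it was 11%, against 10.3% for 89 such genes. That of Rasgef1a was 15.7% after Glenn surgery, against a median of 9.34% for 2922 genes at its level. After sham surgery Rasgef1a had 9.27%, against 8.22% for 805 such genes. For Abhd15 after Glenn surgery the coefficient was 27.9%, under the 32.1% median of 1152 genes at its level.

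Deviations from the group mean, with the library series removed, were then compared between the genes over the 30 libraries. Rasgef1a and Tmcc2 deviated together (Pearson r = 0.50, permutation p = 0.0152, adjusted over 3 pairs 0.0457; Spearman rho = 0.40, permutation p = 0.0563, adjusted 0.127). The correlation was 0.52 after leaving out the 2 libraries with the most extreme Rasgef1a. It was 0.63 among Glenn and 0.16 among sham libraries, a difference that was not tested, and 0.40 within series A. Libraries low in RT1-CE16 gave 0.44 and those high in it 0.57. Without Glenn excess replicate 1 it was 0.37, with an adjusted permutation p of 0.263.

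Abhd15 and Rasgef1a had r = 0.41 (permutation p = 0.0895, adjusted 0.134) and rho = 0.38 (permutation p = 0.0849, adjusted 0.127), which did not pass. Their r was 0.36 without the 2 most extreme Abhd15 libraries, and 0.56 within series A. It was 0.73 where RT1-CE16 was low and 0.06 where it was high, a difference that was not tested. Abhd15 and Tmcc2 had r = 0.19 (permutation p = 0.458, adjusted 0.458) and rho = -0.04 (permutation p = 0.853, adjusted 0.853), and r = 0.04 without the 2 most extreme Abhd15 libraries. Within series A that r was 0.35. In Glenn excess replicate 1 all 3 genes lay above their group, by 0.52 for Abhd15, 0.30 for Rasgef1a and 0.63 for Tmcc2 on the log2(CPM + 1) scale. The added 1 shrinks the value of Abhd15 at its low Glenn levels. In CPM, that replicate had 3.82 against a group mean of 2.27 for Abhd15. It had 65.2 against 51.2 for Rasgef1a and 1039 against 645 for Tmcc2.

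Other genes were ranked by how closely they followed each of the 3 within groups, over the 30 libraries and the 12720 named genes that averaged 1 CPM or more. The correlations are descriptions, since the genes named were chosen for them, and all points share the libraries, their depth and their scaling. Abhd15 was followed most closely by Ngrn, which encodes neugrin, a mitochondrial protein of ribosomal RNA handling, with r = 0.78. The other close genes were Dnase1l1 (0.66), Chmp2b (0.62), an ESCRT-III subunit, Maip1 (0.61) and Vipr1 (0.60), the receptor for vasoactive intestinal peptide. The lowest were Ptgir (-0.72), the prostacyclin receptor, Rfx2 (-0.69) and Chst3 (-0.68). For Abhd15, 1 of the 12720 genes had r above 0.7.

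Ngrn itself had 23.2, 26.5 and 30.8 CPM as the lowest, median and highest sham library, and 19.3, 21.4 and 23.9 CPM in Glenn libraries, so its groups overlapped. The correlation with Abhd15 was 0.67 in sham and 0.86 in Glenn libraries. Without Glenn excess replicate 1 it was 0.70.

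Rasgef1a was followed by Atp2c2 (r = 0.80), a Golgi calcium and manganese pump, Dgkh (0.77), a diacylglycerol kinase, Vipr1 (0.74), Sdr9c7 (0.73) and Cnppd1 (0.72). Copz2 (-0.74), a coatomer subunit, Pgf (-0.74), the placental growth factor, and Ankmy1 (-0.70) were lowest. For Rasgef1a, 9 genes had r above 0.7. Atp2c2 did not differ in mean between the operations beyond its spread, at 32.9 ± 5.74 CPM in sham and 32.3 ± 10.2 CPM in Glenn libraries (SD, n = 15; log2 difference 0.01, SE 0.11). It followed Rasgef1a with r = 0.92 among Glenn and 0.55 among sham libraries, a difference that was not tested.

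With Tmcc2, 73 genes had r above 0.7. The top 5 were Fendrr (0.86), a long noncoding RNA beside Foxf1, Gata2 (0.85), an endothelial and blood transcription factor, Efnb1 (0.83), an ephrin ligand, Phldb1 (0.82) and Panx1 (0.82), a membrane channel. The lowest were Angpt2 (-0.78), a Tie2 ligand, Map7 (-0.74) and Nos2 (-0.73), the inducible nitric oxide synthase. Fendrr ranged from 278 to 453 CPM with a median of 333 in sham and from 116 to 268 CPM with a median of 162 in Glenn libraries, and the operations did not overlap.

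Tmcc2 also moved with depth. Its deviation had r = 0.57 with the log2 library total, against 0.01 for Abhd15 and 0.07 for Rasgef1a. With the library total removed the correlation with Fendrr was 0.80 and that with Gata2 was 0.78, and without Glenn excess replicate 1 they were 0.81 and 0.80. With the library total in the fit, the averaged Glenn minus sham log2 difference of Tmcc2 was -1.19.

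**Figure D3:**
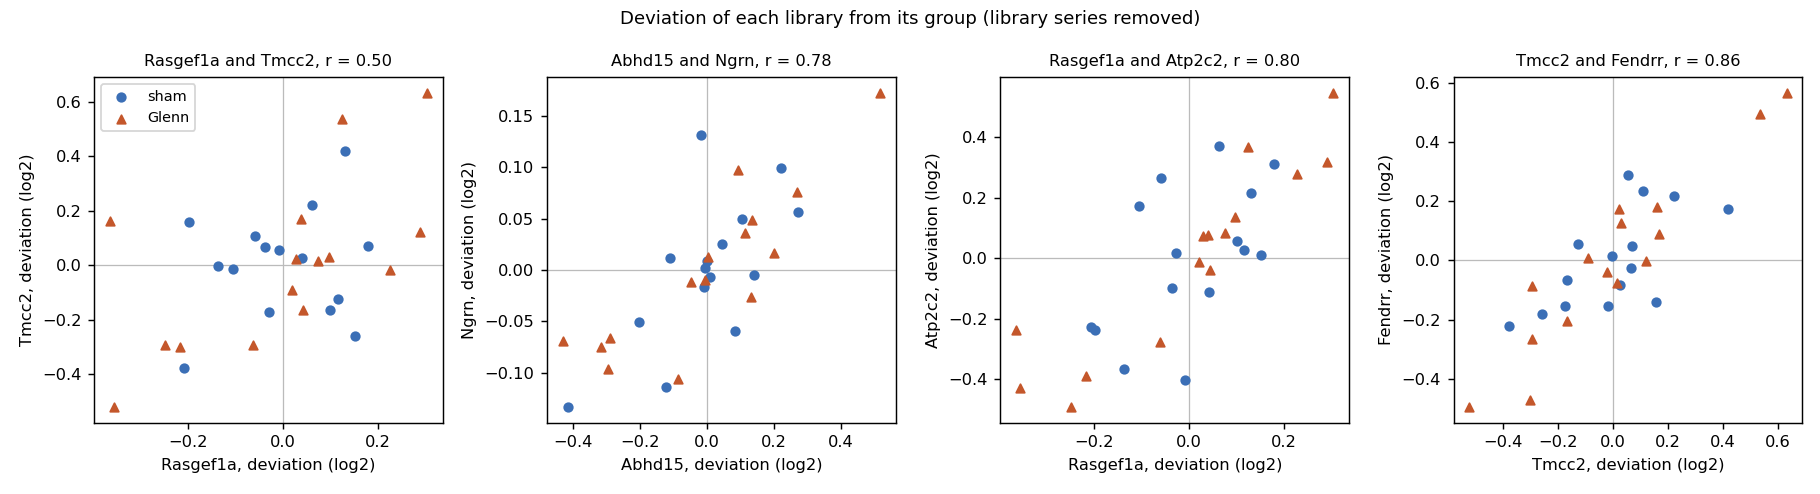
Deviation of each of the 30 libraries from its group on the log2(CPM + 1) scale, library series removed, for Rasgef1a and Tmcc2 and for each gene with its closest follower (circles sham, triangles Glenn). The correlations are 0.50, 0.78 (Abhd15 with Ngrn), 0.80 (Rasgef1a with Atp2c2) and 0.86 (Tmcc2 with Fendrr), and a Glenn library lies at the upper right end of each panel.

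Over whole values, in which the operations dominate, the genes most like Abhd15 were Serpina1 (r = 0.99), the inhibitory SMAD gene Smad6 (0.98) and Rasgef1a (0.98). For Rasgef1a they were Smad6 (0.99), Tmem100 (0.99), a gene downstream of BMP9 and ALK1 in endothelium, and Abhd15 (0.98). For Tmcc2 they were Gata2, Fendrr and Inpp5a (0.97 each). Within groups the correlation of Serpina1 with Abhd15 was 0.46.

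The BMP9/ALK1 pathway, in which a liver-derived ligand signals through an endothelial receptor to SMAD proteins, was described through 20 genes. Their median within-group r was 0.19 with Abhd15, 0.26 with Rasgef1a and 0.21 with Tmcc2, where the median over all genes tested lay between -0.00 and 0.01. The highest were Smad7 with Abhd15 (0.55), Smad6 with Rasgef1a (0.69) and Tmem100 with Tmcc2 (0.77). The lowest were Smad1 (-0.22), Bmper (-0.38) and Gja4 (-0.40) in the same order. In the averaged surgical contrast, in which 48.2% of all genes passed and 24.7% were lower, 6 of the 20 rose, 12 fell and 2 did not pass, with a list median log2 change of -0.464 against -0.0132 over all genes. Smad6 fell from 952 ± 125 to 125 ± 37.7 CPM (SD, n = 15; log2 -2.90, SE 0.109, adjusted p = 5.63e-18, edgeR). This list and those below were chosen with earlier results of these data known, and Smad6 was named after its values were seen. The list counts and the p-value of Smad6 are therefore descriptions.

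Among 11 flow-responsive endothelial genes, 4 rose, 5 fell and 2 did not pass in the same contrast, against the same 48.2% of all genes, with a median of -0.0838. Of the 4, Cyp1b1 did not pass with no series term, in series A alone, among RT1-CE16-low libraries alone or with the library total added. Thbd, encoding the anticoagulant receptor thrombomodulin, had the highest r of them with Rasgef1a (0.64) and Tmcc2 (0.77). With Abhd15 the highest was Aqp1 (0.59), a water channel gene.

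The relatives of the 3 genes were then described in the averaged surgical contrast, with 48.2% of all genes as background. Of 20 other ABHD family genes 19 were tested. Among these, 2 rose, 6 fell and 11 did not pass, with a median log2 change of -0.141. Abhd17b, a depalmitoylating enzyme gene, rose from 68.3 ± 6.14 to 84.6 ± 10.7 CPM (SD, n = 15; log2 0.311, SE 0.0551, adjusted p = 2.74e-05, edgeR). Abhd16b rose by 0.231 (SE 0.0366), and Abhd16a and Abhd13 had changes of -0.213 (SE 0.0406) and -0.242 (SE 0.0491). Abhd5, the activator of adipose triglyceride lipase, had a change of -0.185 (SE 0.0427) and the highest within-group r of the family with both Abhd15 (0.46) and Rasgef1a (0.67).

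Of 24 genes of lipolysis and the insulin to PDE3B route, 21 were tested, and 7 rose, 6 fell and 8 did not pass. Pde3b, whose protein is the described partner of ABHD15, had 5.85 ± 1.22 CPM in sham and 5.72 ± 1.1 CPM in Glenn libraries (SD, n = 15; log2 -0.051, SE 0.111, adjusted p = 0.737, edgeR). Lipe, the hormone-sensitive lipase, fell from 111 ± 23.2 to 72.3 ± 18 CPM (log2 -0.59, SE 0.106, adjusted p = 3.98e-05, edgeR). Insr, the insulin receptor, rose by 0.477 (SE 0.0972). Among RT1-CE16-low libraries alone, 2 of this list rose and 5 fell, and Insr did not pass. Over all genes, 5354 passed in that subset, against 7792 with all 30 libraries.

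Of 24 exchange factors for Ras, Rap and Ral proteins, 19 were tested, and 3 rose, 4 fell and 12 did not pass. Rasgef1b, the closest tested relative of Rasgef1a, rose from 5.6 ± 1.42 to 9.49 ± 1.7 CPM (SD, n = 15; log2 0.749, SE 0.121, adjusted p = 7.13e-06, edgeR). Rasgef1c was below the filter on low counts. Ralgps2, a factor for Ral, rose by 1.14 (SE 0.171), while Rasgrp4 and Rasgrp3, diacylglycerol-regulated factors, had changes of -0.56 (SE 0.0798) and -0.297 (SE 0.0507). Of the Rap2 genes, Rap2a rose by 0.313 (SE 0.0715), and Rap2b (0.00107, SE 0.0487) and Rap2c (0.208, SE 0.0973) did not pass.

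All 16 listed genes around Tmcc2, its family and the APP and apoE proteins, were tested, and 6 rose, 5 fell and 5 did not pass. The paralogs moved apart: Tmcc1 rose from 13.9 ± 1.83 to 22.6 ± 2.59 CPM (SD, n = 15; log2 0.716, SE 0.0668, adjusted p = 3.77e-10, edgeR), and Tmcc3 fell from 116 ± 16.1 to 88.1 ± 28 CPM (log2 -0.411, SE 0.0996, adjusted p = 0.00118, edgeR). Apoe rose from 112 ± 22.3 to 651 ± 170 CPM (log2 2.55, SE 0.116), and App fell by 0.253 on the log2 scale (SE 0.0404). Apbb2 rose by 0.762 (SE 0.0654) and Aph1a fell by 0.274 (SE 0.0342). In series A alone, and among RT1-CE16-low libraries alone, Tmcc3 did not pass. With the excess diet after Glenn surgery 1 gene of the APP and apoE list was higher, where 1.47% of all genes passed. In the other diet comparisons 0 genes of the 3 family lists passed. Of all genes, 0% passed for deficient and 0.241% for excess after sham, and 0.00618% for deficient after Glenn surgery. With so few calls over all genes, these counts say little about the lists.

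**Figure D4:**
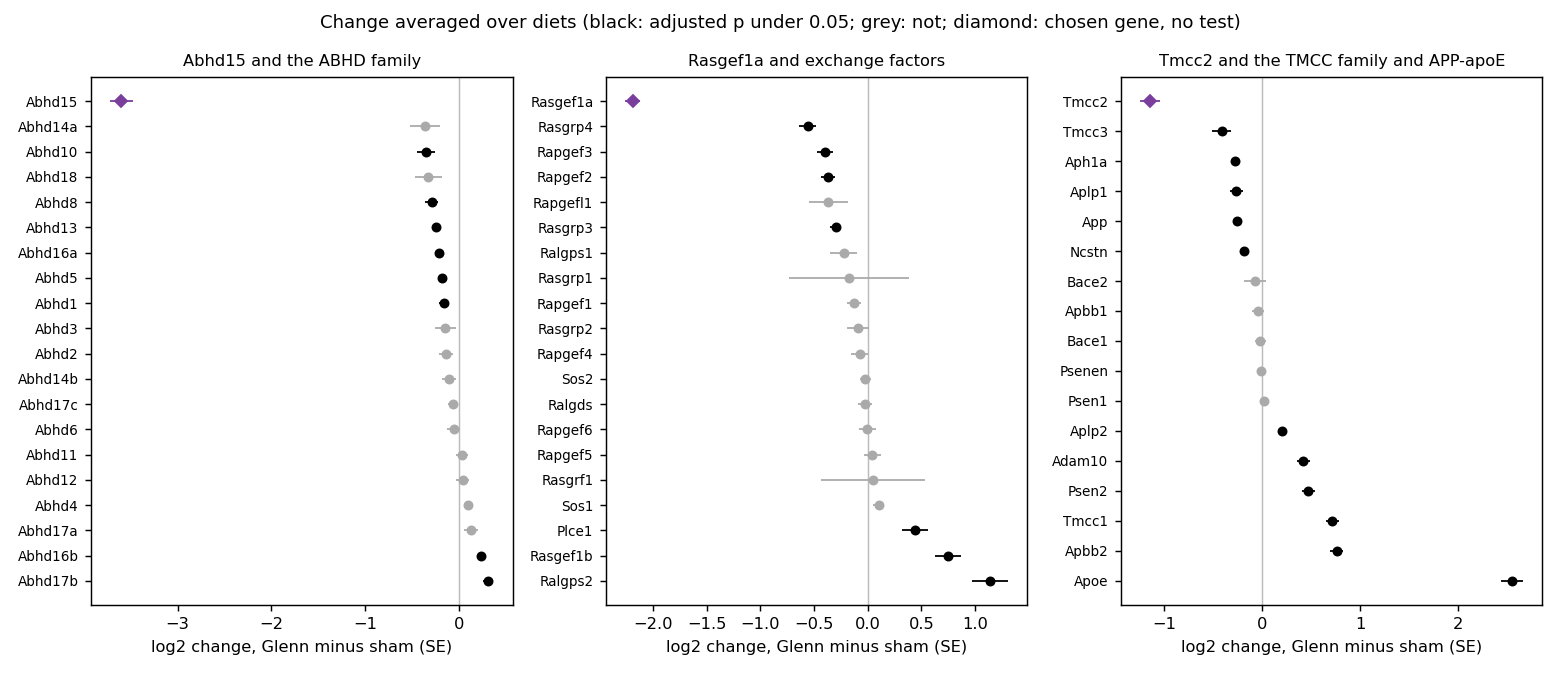
Log2 change, Glenn minus sham, averaged over diets with its SE, for each chosen gene (diamond, no test) and the tested genes of its list (black, adjusted p under 0.05; grey, not). The chosen gene has the lowest value of each panel, at -3.60, -2.19 and -1.14. Because the chosen genes were picked on the Glenn against sham contrast, that place carries no weight of its own. Among the relatives, Rasgef1b and Tmcc1 lie above 0.

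Genes beside the 3 on the chromosome were examined, 3 on each side, and 10 of these 18 were tested. In the averaged surgical contrast used here, 48.2% of all genes passed and 24.7% were lower. Tp53i13, read from the other strand, lies 0.094 kb before the start of Abhd15. It fell from 17.8 ± 3.23 to 12.7 ± 1.72 CPM (SD, n = 15; log2 -0.46, SE 0.08, adjusted p = 1.47e-05, edgeR), and its within-group r with Abhd15 was 0.35. Git1, 6.83 kb away, fell by 0.28 (SE 0.07, adjusted p = 0.00154, edgeR), and Taok1 on the other side did not pass (-0.10, SE 0.06). Beside Rasgef1a, Csgalnact2 (0.07, SE 0.05) and Fxyd4 (-0.27, SE 0.30) did not pass. Beside Tmcc2, the tested genes Nuak2, Dstyk, Rbbp5, Klhdc8a and Tmem81 had log2 differences from -0.31 to 0.13 and none passed. A long noncoding RNA, LOC134486839, overlaps Rasgef1a in the annotation, and whether counting separated the strands is not given in the sources used here.

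Marker lists of 15 cell types were summed in each library, in CPM, and their genes counted in the averaged surgical contrast at an adjusted p under 0.05 (edgeR), where 48.2% of all genes passed and 24.7% were lower. The 7 general capillary markers summed to 7810 to 11809 in sham and 3765 to 8500 in Glenn libraries, the 8500 being Glenn excess replicate 1. Of these 7 genes 6 fell and 0 rose. The largest part was Plvap, with a median of 5163 CPM in sham and 1405 CPM in Glenn libraries. Vwf had medians of 1581 and 1009 CPM, Cd93 of 895 and 855 CPM and Gpihbp1 of 126 and 122 CPM. The 9 mural cell markers summed to 164 to 335 in sham and 488 to 1702 in Glenn libraries, and all 9 rose. The 7 lymphatic endothelial markers, which all rose, went from 1099 to 2023 up to 2494 to 5124. The 8 aerocyte markers summed to 2792 to 4969 in sham and 1906 to 2869 in Glenn libraries, and 6 of them fell and 1 rose.

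Between the operations, the mural and lymphatic sums did not overlap. The sums of all other lists did, general capillary and aerocyte included. The 7 pan-endothelial markers had a median sum of 8751 in sham and 7039 in Glenn libraries (4 fell, 2 rose), and the 7 venous markers 2353 and 1636 (5 fell, 1 rose). The 8 arterial markers had 1529 and 1683 (3 fell, 5 rose), and the 7 fibroblast markers 2186 and 2947 (6 rose, 0 fell). The 8 alveolar epithelial markers had 41641 and 30671 (5 fell, 1 rose), and the 7 platelet markers 71.3 and 36.8 (6 fell, 0 rose). The leukocyte sum had a median of 12.6 and 7.17, and the mesothelial sum one of 304 and 299.

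Within groups, the general capillary sum had r = 0.36 with Abhd15, 0.52 with Rasgef1a and 0.40 with Tmcc2, and the mural sum had -0.38, -0.42 and -0.37. Without Glenn excess replicate 1 the first 3 were 0.14, 0.42 and 0.19, and the mural values were -0.23, -0.32 and -0.21. Taken singly, the general capillary markers differed in r over all 30 libraries. With Abhd15 they ran from -0.14 (Aplnr) to 0.46 (Plvap), and with Rasgef1a from -0.10 (Cd93) to 0.64 (Ptprb). With Tmcc2 they ran from -0.09 (Aplnr) to 0.56 (Plvap). The part of these cell types in the lower levels of the 3 genes was not tested.

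Markers of other cells in which these genes are known were summed in the same way. The 8 adipocyte markers summed to 82.4 to 166 CPM in sham and 60.7 to 136 CPM in Glenn libraries, mostly from Lipe, with a median of 87.5 CPM, and Fabp4, with a median of 8.6 CPM. Of 5 tested in the averaged surgical contrast, where 48.2% of all genes passed, 1 (Lipe) fell and 3 rose. The median of Fabp4 was 6.97 CPM in sham and 16.2 CPM in Glenn libraries. The fat cell genes Lep and Plin1 had a median of 0, and Adipoq had one of 0.295 CPM and at most 1.42 CPM. The adipocyte sum had a within-group r of 0.14 with Abhd15, 0.31 with Rasgef1a and 0.51 with Tmcc2, the last being 0.63 among Glenn libraries and 0.60 without Glenn excess replicate 1. Singly, the r with Tmcc2 was 0.56 for Lipe, 0.12 for Adipoq, 0.08 for Fabp4, 0.14 for Cfd and -0.38 for Pck1. The part of the adipocyte sum in the Tmcc2 values was not tested. Of 8 neuronal markers, summing to 9.3 to 16.9 CPM and 6.83 to 17.3 CPM, Snap25 and Nefl had a median of 0. Of 13 erythroid markers 9 were in the table, and they summed to 9.51 to 17.6 CPM in sham and 9.95 to 204 CPM in Glenn libraries. The erythroid sum had a within-group r of 0.48 with Tmcc2, and -0.22 and -0.25 with Abhd15 and Rasgef1a. It was highest in Glenn deficient replicate 2, at 204 CPM, and Glenn control replicate 2, at 83.2 CPM, and its part in the Tmcc2 values was not tested.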

How the data were processed

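Per the submitters' processing notes, FastQC, Trim Galore, STAR, Salmon and Picard and the build mRatBN7.2 (rn7) were used, with no versions given; per the labels' protocols, libraries came from a SMART-Seq low-input kit. The authors deposited 1 table of Salmon estimated counts per gene, of which 13.6% were not whole numbers; its 30 sample columns were all used and 0 columns were left out. The estimated counts were rounded. After filterByExpr (minimum count 10, minimum total 15) 16171 genes were fitted with edgeR 4.0.16 (TMM, quasi-likelihood test, 6 group means plus library series), with Benjamini-Hochberg adjustment over all genes and 0.05 as threshold. Each standard error was taken as log2 change over the root of the F statistic.

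The series comes from library names, and RT1-CE16 level (100 CPM) and sex (Ddx3y, 10 CPM) from the data. Within-group correlations used residuals of log2(CPM + 1) and 100000 permutations within groups. The members and gene lists were chosen with earlier results of these data known. Named list genes are the 2 raised and 2 lowered with the smallest adjusted p per family list, preset relatives (Rasgef1b, Rasgef1c, Tmcc1, Tmcc3, Pde3b, App and Apoe), the 5 genes with the highest and 3 with the lowest correlation (placeholder symbols left out), the 3 highest over whole values, and 3 neighbours per side. Abhd5, Lipe, Insr, Rap2a, Rap2b, Rap2c, Thbd, Aqp1 and the BMP genes were chosen after their values were seen, and so were the genes used to check the sort. Sequences, positions and neighbours are from RefSeq GRCr8, matched by symbol for 3 of 3 genes. Shares of counts carry counting error only.

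On simulated counts for deficient minus control diet after Glenn surgery (15988 genes, 50 changed per size), the fit recovered 20, 36, 38 and 41 genes at log2 changes of 0.5, 1, 1.5 and 2, with 5 false calls. Alternatives were DESeq2 1.42.0, limma 3.58.1 voom, DESeq2 size factors, no filter, no series term, other terms or subsets of libraries, and leaving out each of the 30 libraries. A term for library total, and gene correlations without Glenn excess replicate 1, were added after seeing the data.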

Additional observations from a re-analysis of the deposited data

Results flagged for a closer look

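Abhd15 in sham deficient replicate 5 lay apart from the other 4 libraries of its group, at 16 CPM against 23.4 to 26.4 CPM. The gap to the nearest of the others was 0.712 of the group's whole range, above the 95% critical value of Dixon's test for 5 samples. Of 18 sets of 5 libraries examined for the 3 genes, 1 passed, and 0.9 would be expected by chance.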

How the results depend on the processing

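Over 33 results for the 3 genes and 1383 values under alternatives, 1314 kept their direction, their side of the threshold or, for surgical differences, stayed within the spread between libraries. All 513 values of Glenn minus sham for the 3 genes were below 0, and 502 of them stayed within that spread. The cause of the other changes was not tested.

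On the excess diet the log2 difference of Abhd15 was -2.92 in series A alone and among RT1-CE16-low libraries alone, -2.93 with only the groups compared and -3.47 by limma voom, and leaving out single libraries gave -3.60 to -3.13. On the deficient and excess diets, series A and the RT1-CE16-low subset hold the same libraries, so their like values are not separate checks. For Tmcc2 the deficient diet gave -0.93 in series A alone and among RT1-CE16-low libraries alone. On the excess diet Tmcc2 gave -0.63 in each of those subsets and -0.64 with only the groups compared, and -1.24 to -0.86 with single libraries left out. The excess minus control difference of Abhd15 after Glenn surgery was 0.89 and passed in series A alone.

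Diet differences near 0 changed sign. Deficient minus control after sham was 0.03 (RT1-CE16-low alone) and 0.0046 (edgeR's newer fitting mode) for Abhd15. For Rasgef1a it was -0.03 with no series term, -0.01 among RT1-CE16-low libraries and -0.04 with the RT1-CE16 level replacing the series. For Tmcc2 it was -0.04 with no series term, -0.24 in series A alone and with only the groups compared, -0.21 among RT1-CE16-low libraries and -0.03 with RT1-CE16 level as the term. After Glenn surgery, deficient minus control was -0.06 (series A alone), -0.12 (RT1-CE16-low alone) and -0.07 (only the groups compared) for Rasgef1a. For Tmcc2 it was -0.07 (no series term), -0.14 (RT1-CE16-low alone) and -0.06 (RT1-CE16 level as the term). Excess minus control after sham was -0.06 for Tmcc2 with RT1-CE16 level as the term. Leaving out single libraries gave -0.11 to 0.05 for Abhd15 and -0.03 to 0.12 for Rasgef1a after sham, and -0.05 to 0.17 for Rasgef1a and -0.05 to 0.18 for Tmcc2 after Glenn surgery.

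The correlation of Rasgef1a and Tmcc2 no longer passed at 0.53 with group means alone (adjusted permutation p = 0.0722), 0.32 with series A alone refitted (adjusted 0.353) and 0.48 with RT1-CE16 level as the term. With single libraries left out it was 0.37 to 0.63 and no longer passed in 14 of 30 cases. That of Abhd15 and Tmcc2 was -0.15 to 0.30.

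Same-numbered sham and Glenn libraries deviated together in only part of the pairs (r = -0.25 to 0.23, best with its own number in 2, 1 and 2 of 5 sham libraries by diet), so the numbers were not taken to pair libraries. With a replicate block the deficient minus control difference was -0.03 for Rasgef1a after sham and -0.01 for Tmcc2 after Glenn surgery, and no call on the 3 genes changed. The block moved the genes called from 237 to 34 for excess minus control after Glenn, from 39 to 111 after sham, and from 265 to 0 for series.

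Counts over all genes moved most in the small contrasts. Glenn minus sham gave 1563 genes (RT1-CE16-low alone) against 4023 on control, 2398 and 2553 (RT1-CE16-low, series A) against 4423 on deficient, and 1960, 2152 and 2270 (groups compared, RT1-CE16-low, series A) against 3549 on excess. Deficient minus control ranged from 1 to 63 genes after Glenn and from 0 to 26 after sham. Excess minus control after Glenn ranged from 10 to 524, falling to 2 without Glenn excess replicate 1 and reaching 557 without Glenn control replicate 1, and after sham from 0 to 210. The series contrast ranged from 0 to 571 and was 75 without Glenn excess replicate 1, and the interaction ranged from 0 to 35. Few reads limit Abhd15 after Glenn surgery, where a library held 47 to 184 estimated counts.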

Other observations

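Sex was read from the Y-linked gene Ddx3y, which put 13 libraries as male and 17 as female, since the labels do not give it. Male minus female log2 differences were 0.0811 (SE 0.112) for Abhd15, 0.077 (SE 0.0673) for Rasgef1a and -0.0511 (SE 0.104) for Tmcc2, with adjusted p of 0.916, 0.848 and 0.945 (edgeR). RT1-CE16-high minus low differences were -0.133 (SE 0.124), -0.103 (SE 0.0733) and -0.217 (SE 0.11) in the same order, with adjusted p of 0.583, 0.446 and 0.257 (edgeR).

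Vipr1, the receptor for vasoactive intestinal peptide, was among the 5 closest followers of both Abhd15 (r = 0.60) and Rasgef1a (0.74), and had r = 0.57 with Tmcc2. Without Glenn excess replicate 1 its r was 0.45 with Abhd15 and 0.68 with Rasgef1a. Among sham libraries these were 0.35 and 0.33, and among Glenn libraries 0.68 and 0.84. Vipr1 fell from a sham range of 301 to 542 CPM with a median of 421 to a Glenn range of 97.2 to 304 CPM with a median of 140 (log2 -1.41, SE 0.09, adjusted p = 6.7e-13, edgeR). Its groups overlapped by 1 Glenn library at the edge of the sham range. Angpt2, the lowest follower of Tmcc2, rose from 13.2 to 17.9 CPM in sham to 54.3 to 121 CPM in Glenn libraries (log2 2.38, SE 0.09, adjusted p = 3.76e-18, edgeR).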
